A study of Arabidopsis thaliana with 6 samples.

Results

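Mitochondria import most of their proteins unfolded, and a set of chaperones in the matrix pulls these chains in and folds them. Hsp70 proteins of the matrix (mtHsc70) bind the incoming chain and release it with the help of the GrpE-type nucleotide exchange factors MGE1 and MGE2. Folding is then completed inside the barrel of the chaperonin HSP60, which is closed by its lid, the co-chaperonin CPN10, while small heat shock proteins hold denaturing proteins and are known for their induction by heat. The 10 Arabidopsis thaliana genes described here are those named HSP60, HSP60-2, HSP60-3A, CPN10, mtHsc70-1, mtHsc70-2, MGE1, MGE2, HSP23.6-mito and HSP23.5-mito, found by their identifiers among 32833 genes of the deposited table. All 10 had reads in every library. The set was chosen by name with the scaled counts and fold changes of xal1-2 against wild type in this table already known, so differences between the genotypes are given as a description, without p-values, and no threshold separates members from other genes.

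RNA came from roots of seedlings at 8 days after sowing, with hypocotyls and cotyledons removed, in 3 libraries of the wild type (WT, accession Col-0) and 3 of xal1-2, a loss-of-function mutant in the MADS-box gene XAANTAL1 (XAL1) in the Col-0 background. Each library pooled about 60 plants. Both genotypes received the same medium, 0.2X Murashige and Skoog salts plus sucrose at 1%, and stood on vertical plates at 22 °C under a day of 16 h light and a night of 8 h. The mutant is known for short roots, and the study asked which genes change in them. Values are scaled counts, that is, reads per gene divided by a size factor for each library, and the libraries held from 6978879 to 9247089 reads assigned to genes.

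Along the second principal component (18.8% of the variance) WT replicate 3 was at -35.0, while WT replicates 1 and 2 were at 15.6 and 9.16. The mutant libraries were at -7.86, 16.7 and 1.39, so that xal1-2 replicate 3 did not stand apart on this axis. Of 13 heat shock genes in a list, 12 were highest in replicate 3 of both genotypes, against 10.8% of all genes tested. Among 5 cytosolic Hsp70 genes this held for 3, as detailed with the small heat shock genes. XAL1 itself was at 263.8, 250.1 and 268.7 in WT replicates 1, 2 and 3 and at 76.5, 102.0 and 103.2 in xal1-2. Its mean in the mutant was 0.36 of that in WT (log2 fold change -1.48, SE 0.14; limma adjusted p = 0.00034), so transcript from the locus was still counted. Markers of root tissue were all detected, and the sum of 7 of them ran from 137238 to 154248 in WT and from 129766 to 152329 in the mutant. Most of that sum was PYK10, at 133442 to 149584 in WT and 126001 to 148932 in xal1-2. The sum of 6 markers of dividing cells ran from 965.3 to 1203 and from 1023 to 1184, with 0 of the 6 called by the limma test across all genes. Among the root markers 1 was called, CASP1, a gene of the endodermal barrier, which fell from 2022 ± 188 to 1355 ± 103 (adjusted p = 0.0185). In RNA from whole roots, a change in the share of a cell type and a change in the RNA per cell cannot be told apart.

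In the TAIR10.1 annotation HSP60 (AT3G23990) lies at chr3:8668772-8672578, HSP60-2 (AT2G33210) at chr2:14074767-14078772 and HSP60-3A (AT3G13860) at chr3:4561517-4565335. The locus of CPN10 (AT1G14980) is chr1:5165489-5166939, that of mtHsc70-1 (AT4G37910) chr4:17824777-17828192 and that of mtHsc70-2 (AT5G09590) chr5:2975436-2978750. MGE1 (AT5G55200) lies at chr5:22394550-22396572 and MGE2 (AT4G26780) at chr4:13484839-13486858. The small heat shock genes are HSP23.6-mito (AT4G25200) at chr4:12916926-12918110 and HSP23.5-mito (AT5G51440) at chr5:20891163-20892416. Reads of near-identical stretches can be split between copies. HSP60 and HSP60-2 shared 79.6% of aligned coding bases, and the longest identical stretch of their transcripts was 29 bases. HSP60-3A shared 70.3% with HSP60 and 69.2% with HSP60-2, mtHsc70-1 shared 75.3% with mtHsc70-2, MGE1 76.4% with MGE2 and HSP23.6-mito 76.0% with HSP23.5-mito. No pair of copies had an identical stretch longer than 37 bases.

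Promoters are shown for 4 of the members that hold motifs discussed with the results. They are HSP60-2 and mtHsc70-2, as copies of the chaperonin and the Hsp70, and both small heat shock genes. Each is the sequence upstream of the annotated start (TAIR10.1, from RefSeq), 5′ to 3′ on the strand of the gene, up to 250 bases or up to the next annotated gene. Capitals mark the site II element (TGGGCC or TGGGCT on either strand), known from promoters of many nuclear genes for mitochondrial proteins, and the core of the heat shock element (GAANNTTC or TTCNNGAA), the binding site of heat shock factors.
HSP60-2, chr2:14078773-14078849, minus strand: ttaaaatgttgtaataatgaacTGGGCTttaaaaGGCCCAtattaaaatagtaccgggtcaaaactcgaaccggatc
mtHsc70-2, chr5:2975209-2975435, plus strand: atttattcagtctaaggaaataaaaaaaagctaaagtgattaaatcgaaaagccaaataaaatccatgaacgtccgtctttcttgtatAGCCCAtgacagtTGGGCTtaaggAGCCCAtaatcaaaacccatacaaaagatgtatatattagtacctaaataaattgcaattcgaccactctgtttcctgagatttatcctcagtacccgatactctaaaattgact
HSP23.6-mito, chr4:12916676-12916925, plus strand: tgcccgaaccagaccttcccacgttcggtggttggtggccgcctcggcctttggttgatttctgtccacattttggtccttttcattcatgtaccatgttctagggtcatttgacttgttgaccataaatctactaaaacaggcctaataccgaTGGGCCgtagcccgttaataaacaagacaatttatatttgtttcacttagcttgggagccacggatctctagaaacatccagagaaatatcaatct
HSP23.5-mito, chr5:20891008-20891162, plus strand: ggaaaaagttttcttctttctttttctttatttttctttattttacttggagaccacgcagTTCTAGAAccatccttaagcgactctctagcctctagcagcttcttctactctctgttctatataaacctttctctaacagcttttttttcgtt

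Over 250 bases before the start, 7 of the 10 members held a site II element, against 19.2% of 27443 promoters of the same length. The members without it were HSP60, MGE1 and CPN10. In HSP60-2 a pair of them lay 55 and 43 bases before the start, in opposite orientation, and mtHsc70-2 held 3 of them between 139 and 110 bases before the start. The heat shock element core was found in 2 of the 10, HSP60-3A and HSP23.5-mito, against 16.1% of all promoters. In HSP60-3A, whose promoter is not printed, the core lay 13 to 6 bases before the start and a site II element 23 to 18 bases before it. MGE2, also not printed, held a site II element 61 to 56 bases before the start. In HSP23.5-mito the heat shock element core lay 94 to 87 bases before the start. The site II elements of that gene lay upstream of the stretch printed, which stops at a neighbouring gene. The site II elements of mtHsc70-1, starting at positions -175 and -127, likewise lay beyond the 84 bases that separate its start from a neighbouring gene. The mitochondrial dysfunction motif (CTTGNNNNNCAAG), which NAC factors of mitochondrial retrograde signalling bind, was found in 0 of the 10 and in 0.74% of all promoters. These are matches of letters only, with any overlap with a neighbouring gene included in the counts.

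In WT roots the chaperonin and its lid had the highest levels per kilobase of exon. On that scale, CPN10 was at 1228 ± 191 scaled counts (SD, n = 3) and HSP60 at 865 ± 130, with overlapping libraries. They were followed by mtHsc70-1 at 598 ± 42.7, mtHsc70-2 at 536 ± 107, HSP23.5-mito at 424 ± 243 and HSP60-2 at 288 ± 38.8. From mtHsc70-1 to HSP60-2 each overlapped the next in this order, while the lowest HSP60 library lay above every library of mtHsc70-1. HSP60-3A (181 ± 37.9), MGE2 (155 ± 15.6) and MGE1 (152 ± 22.6) came next, each overlapping its neighbour, with HSP60-2 above them in every WT library. HSP23.6-mito was lowest, at 26.2 ± 30.9. CPN10 and HSP60 exceeded 96.7% and 95.2% of all genes tested that have a length, and HSP23.6-mito 33.1%.

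Between genotypes, all 10 genes had a log2 fold change above 0, from 0.33 to 1.12 with a median of 0.57 (on the log2(scaled count + 1) scale, xal1-2 over WT), while the median over all 24441 genes tested was -0.004. In 7 of the 10, every mutant library lay above every WT library, a pattern found in 12.1% of all genes tested. The limma test across all genes, with Benjamini-Hochberg adjustment and a threshold of 0.05, called 5 of the 10 higher in the mutant and 0 lower, where it called 3.93% of all genes, 1.66% higher and 2.27% lower. With a fold above 1.5 as well, 4 of the 10 passed, against 1.16% of all genes. Among genes with a mean scaled count of 100 or more, which all members but HSP23.6-mito reached, 47.2% had a log2 fold change above 0, 13.8% had every mutant library above every WT library and 2.17% were called higher. Since the members were proposed with this comparison known, nothing is read from these counts. The 5 were HSP60, HSP60-2, mtHsc70-1, MGE1 and MGE2. The authors' deposited table lists 7 of the 10 at an adjusted p under 0.05. DESeq2 on the recovered reads called the same number, adding HSP60-3A and CPN10 to the 5, and called 1055 genes in all. The reads were recovered from the authors' own columns and gave the members the same fold changes and SEs. This DESeq2 fit therefore repeats the authors' test and is not a separate result. Without xal1-2 replicate 1 limma called 0 of the 10 (and 81 genes in all, against 961), and without WT replicate 3 it called 7 (871 in all). It called 3 without WT replicate 1 (430 genes in all) and 2 without WT replicate 2 (193 in all). Without xal1-2 replicate 2 or 3 it called 3 (326 and 535 in all). Over these 6 fits mtHsc70-1 and MGE1 lost their call only without xal1-2 replicate 1, and HSP60-2 lost it without xal1-2 replicate 1 or WT replicate 2. HSP60 and MGE2 were called in 1 of the 6, that without WT replicate 3.

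**Figure D1:**
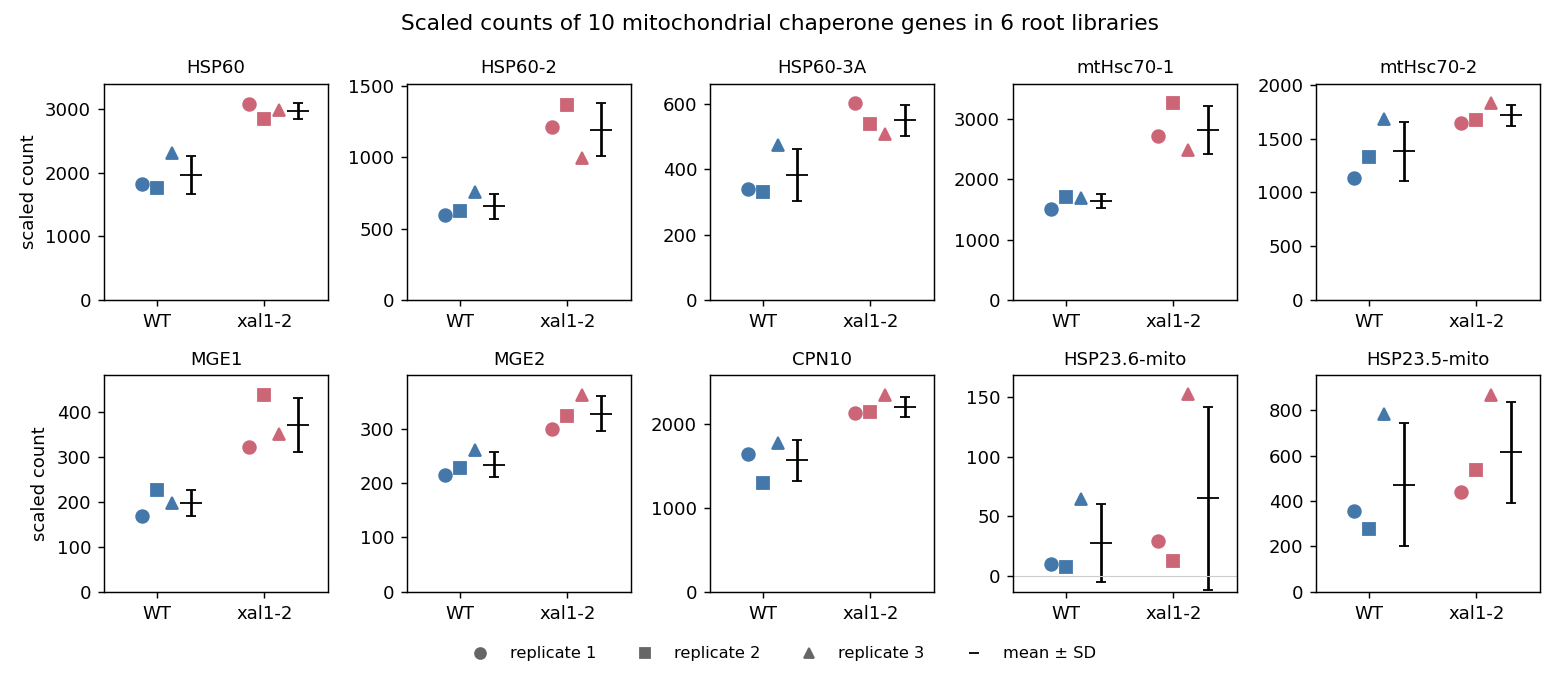
Scaled counts (y axis, linear, a separate range in each panel) of the 10 genes in the 3 WT and 3 xal1-2 libraries, with symbols for the replicate number and bars for mean ± SD. The chaperonin, CPN10, mtHsc70-1 and MGE panels show all mutant points above the WT points, while mtHsc70-2 and the small heat shock genes overlap and the latter are highest in replicate 3 of both genotypes.

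HSP60, the most abundant of the chaperonin genes, had scaled counts of 1831, 1764 and 2309 in WT replicates 1, 2 and 3, against 3089, 2842 and 2983 in xal1-2. The lowest mutant library was above the highest WT library, and the means were 1968 ± 297 and 2971 ± 124 (SD, n = 3), a log2 fold change of 0.60 (SE 0.12). HSP60-2, a second copy, was at 594, 621 and 759 in WT and at 1213, 1370 and 999.8 in xal1-2. Its groups did not overlap either, and its log2 fold change was 0.85 (SE 0.13). HSP60-3A, the least abundant copy, was at 341, 332 and 474 in WT and at 603, 540 and 509 in xal1-2. Its groups were separated by a narrow gap, between WT replicate 3 and xal1-2 replicate 3 (log2 fold change 0.54, SE 0.14, not called).

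The summed level of the HSP60 genes per kilobase was 1334 ± 206 in WT and 2089 ± 93.0 in the mutant, a ratio of means of 1.57. HSP60 itself gave 64.9% ± 0.68 of that sum in WT and 62.6% ± 3.27 in xal1-2, HSP60-2 gave 21.6% ± 0.81 and 24.9% ± 3.28, and HSP60-3A 13.5% ± 0.69 and 12.5% ± 0.57. The libraries of the genotypes overlapped in the share of each copy. HSP60-2 held 28.5% in xal1-2 replicate 2 and 22.0% in xal1-2 replicate 3, against 21.1% to 22.6% in WT.

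CPN10, the lid of the chaperonin, was at 1647, 1299 and 1772 in WT, against 2131, 2144 and 2349 in xal1-2. All mutant libraries were higher than all WT libraries (log2 fold change 0.50, SE 0.13, not called by limma). It shares its first 27 bases with the end of AT1G14990 on the same strand, which was at 113 ± 12.2 in WT and 114 ± 17.6 in xal1-2 (adjusted p = 0.982). The summed HSP60 level over the CPN10 level, both per kilobase, was 1.09 ± 0.12 in WT and 1.22 ± 0.12 in the mutant, with overlapping libraries.

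The Hsp70 copies had log2 fold changes of different size, and this difference between copies was not tested. mtHsc70-1, which encodes one of the matrix Hsp70 proteins, was at 1500, 1713 and 1689 in WT and at 2719, 3260 and 2479 in xal1-2. The groups did not overlap, with a log2 fold change of 0.78 (SE 0.12). Its copy mtHsc70-2 was at 1138, 1326 and 1681 in WT and at 1642, 1673 and 1828 in xal1-2. Here WT replicate 3 lay above xal1-2 replicates 1 and 2, and the log2 fold change was 0.33 (SE 0.14, not called). It ran from 0.20 without WT replicate 1 to 0.48 without WT replicate 3, below the range of mtHsc70-1 over the same 6 fits (0.67 to 0.87). These fits share libraries, so the ranges do not give the error of the difference between copies. mtHsc70-1 held 55.4%, 54.9% and 48.6% of the summed mtHsc70 level per kilobase in WT, against 60.9%, 64.7% and 56.1% in xal1-2, 7.60 percentage points more on average. The groups did not overlap in this share, by a gap between xal1-2 replicate 3 and WT replicate 1.

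**Figure D2:**
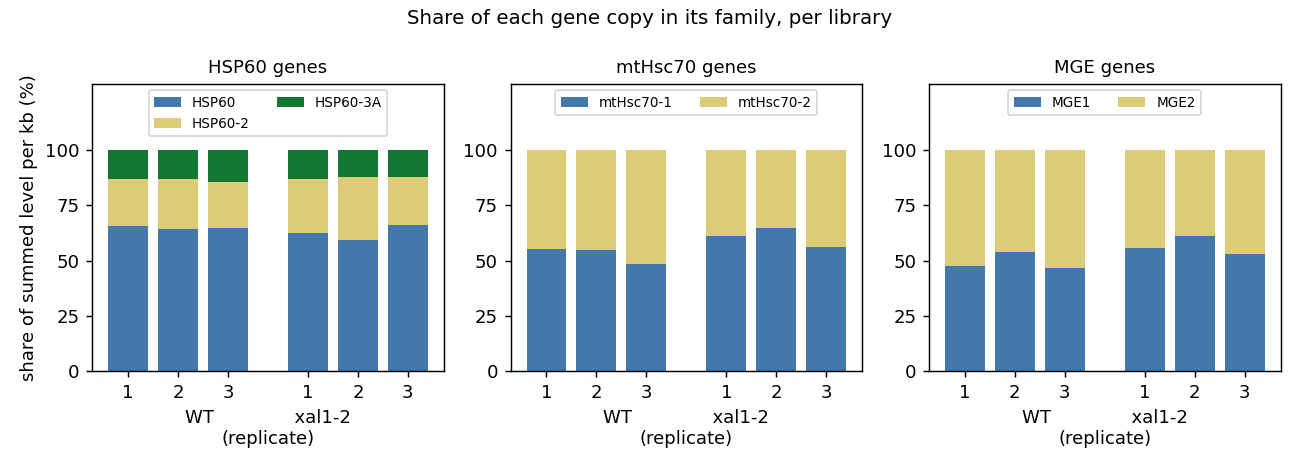
Stacked bars give the share (y axis, percent) of each gene copy in the summed level per kilobase of its family, for each library of WT and xal1-2. The mtHsc70-1 share is higher in all 3 mutant libraries (56.1% to 64.7%) than in WT (48.6% to 55.4%), and the shares of the HSP60 and MGE copies overlap between genotypes.

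The nucleotide exchange factor gene MGE1 was at 168, 227 and 197 in WT and at 323, 437 and 350 in xal1-2. Its groups did not overlap and its log2 fold change was 0.90 (SE 0.15). MGE2, the other gene for a GrpE-type factor, was at 215, 227 and 260 in WT and at 299, 323 and 362 in xal1-2 (log2 fold change 0.48, SE 0.12). Its groups did not overlap either. Besides the fits that left out a library, MGE2 lost its call with a pseudocount of 0.1 or 5, and, like MGE1, without replicate 3 of both genotypes. MGE1 made up 49.4% ± 3.78 of the summed MGE level per kilobase in WT and 56.5% ± 4.18 in the mutant, with WT replicate 2 above xal1-2 replicate 3. Both genes overlap a gene on the opposite strand. Since no source used here gives the strand setting of the counting, reads in these overlaps may belong to either gene. AT5G55210 covers 147 bases of MGE1 and was at 76.3 ± 10.4 in WT and 80.6 ± 9.09 in xal1-2 (limma adjusted p = 0.827). AT4G26770 covers 105 bases of MGE2 and was at 54.9 ± 12.1 and 24.7 ± 8.14 (log2 fold change -1.15, SE 0.29, limma adjusted p = 0.0529).

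The small heat shock genes overlapped between genotypes and varied widely between replicates. HSP23.6-mito was at 9.77, 7.71 and 64.9 in WT and at 29.7, 12.4 and 152.7 in xal1-2. Replicate 3 was the highest library in both genotypes, 7.42 times the mean of the other WT libraries and 7.25 times that of the other mutant libraries, and the groups overlapped. Its log2 fold change of 1.12 had an SE of 0.85. HSP23.5-mito was at 357, 278 and 782 in WT and at 439, 538 and 867 in xal1-2, again with replicate 3 highest in both (log2 fold change 0.47, SE 0.33). Without WT replicate 3 the log2 fold change of HSP23.6-mito was 2.04, and without xal1-2 replicate 3 it was 0.14. For HSP23.5-mito these values were 0.90 and 0.19, and 0.16 without WT replicate 2. With replicate 3 of both genotypes left out, the log2 fold changes were 1.07 (SE 0.47) for HSP23.6-mito and 0.62 (SE 0.16) for HSP23.5-mito. With the replicate number added to the design, the SEs over all libraries were 0.28 for HSP23.6-mito and 0.15 for HSP23.5-mito.

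For most of the listed heat shock genes outside mitochondria, replicate 3 stood apart in the same way. Among 13 genes for small heat shock proteins, HSP101, HSP90.1 and the heat shock factor HSFA2, it was the highest library in both genotypes for 12, against 10.8% of all genes tested. Replicate 3 was also highest in both genotypes for 3 of 5 cytosolic Hsp70, 4 of 5 endoplasmic reticulum chaperone and 8 of 16 plastid chaperone genes. The same held for 3 of 7 other mitochondrial folding genes, but for 0 of 9 CCT and 0 of 7 import motor genes. The summed level of the 13 heat shock genes was 2673, 2207 and 5016 in WT, against 1933, 2041 and 5189 in xal1-2. HSP90.1, a heat-inducible cytosolic Hsp90 gene, was at 1462, 984 and 2697 in WT and at 705, 729 and 2368 in xal1-2. All 5 green tissue markers were also highest in replicate 3 of both genotypes (sums of 1314, 1280 and 1795 in WT and 1154, 869 and 1820 in xal1-2), and their part in these values was not tested. Of the other members, mtHsc70-2, MGE2 and CPN10 were highest in replicate 3 of both genotypes, by at most 1.36 times the mean of the other libraries. Leaving out replicate 3 of both genotypes, limma called 4 members (HSP60, HSP60-2, HSP60-3A and mtHsc70-1) and 503 genes in all. The members' median log2 fold change was then 0.74, against -0.004 over all genes tested in that fit, which was chosen after seeing the data.

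**Figure D3:**
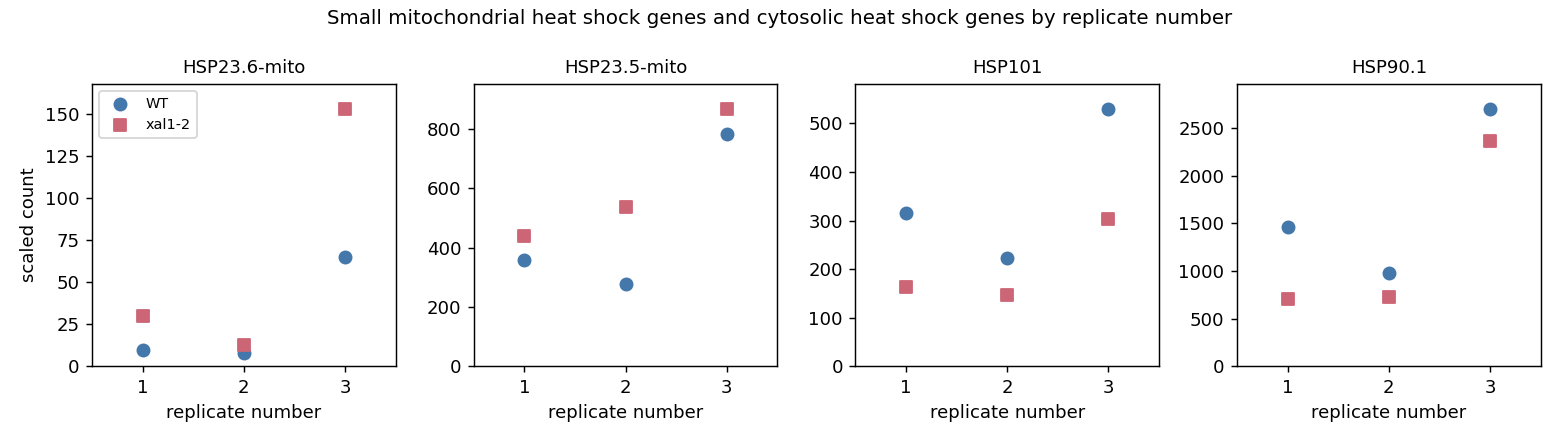
Scaled counts (y axis, linear from 0) by replicate number (x axis) for HSP23.6-mito, HSP23.5-mito and the heat shock genes HSP101 and HSP90.1, with circles for WT and squares for xal1-2. In each panel and each genotype the replicate 3 library is the highest.

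By the likeness of their values over the 6 libraries, the genes nearest to HSP23.6-mito were CAF1a, AT4G27652 and AT5G48570, at root mean square differences of 0.84, 0.89 and 0.90 on the log2 scale. CAF1a was at 26.1, 28.6 and 358 in WT and at 283, 38.2 and 226 in xal1-2, so that even the nearest gene differed widely in single libraries. Nearest to CPN10, the member with the highest mean level per kilobase in WT, were AT1G36280, HYL1 and AT1G06790, at 0.034, 0.046 and 0.046. AT1G36280 was at 116, 92.6 and 123 in WT and at 158, 158 and 164 in xal1-2.

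Other folding proteins of mitochondria, genes that are not members, also rose in part. Of 7 such genes limma called 3 higher and 0 lower, and their median log2 fold change was 0.46. GFA2, which encodes a mitochondrial J-domain partner of Hsp70, rose from 333 ± 21.4 to 538 ± 27.5 (0.69, SE 0.10, limma adjusted p = 0.0046). ATJ1, another mitochondrial J-domain gene, rose from 56.3 ± 8.88 to 95.8 ± 3.53 (0.77, SE 0.18, adjusted p = 0.039). AT1G23100, a GroES-like gene of the CPN10 type, rose from 115 ± 19.3 to 186 ± 21.6 (0.70, SE 0.15, adjusted p = 0.032). GFA2 stayed called whichever library was left out (adjusted p up to 0.0455). AT1G23100 was called only without WT replicate 1 and ATJ1 only without WT replicate 3 (adjusted p up to 0.127 and 0.155).

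The remaining 4 of these genes were not called by limma. The Zim17-type zinc finger gene ZR3 was at 128 ± 9.31 and 177 ± 12.7 (adjusted p = 0.070) and the mitochondrial Hsp90 gene Hsp89.1 at 848 ± 255 and 1079 ± 29.1 (adjusted p = 0.228). CLPB4, for a protein-unfolding chaperone of the Hsp100 type, was at 456 ± 79.0 and 460 ± 60.0 (adjusted p = 0.964). AT1G52560, an HSP20-like gene, was at 20.6, 23.1 and 24.7 in WT and at 7.99, 14.2 and 16.8 in the mutant (log2 fold change -0.82, SE 0.32, adjusted p = 0.186), with every mutant library below every WT library.

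Of 7 genes for the import motor that recruits mtHsc70 to the inner membrane, 2 rose and 5 were not called, with a median of 0.30. AT5G61880, annotated as a Pam16 transporter subunit, went from 97.6 ± 5.36 to 151 ± 10.99 (0.62, SE 0.14, limma adjusted p = 0.029), and AT5G03030, a DnaJ-domain gene, from 169 ± 12.4 to 248 ± 33.2 (0.54, SE 0.13, adjusted p = 0.044). AT5G03030 lost its call whichever of the 6 libraries was left out (adjusted p up to 0.157), and AT5G61880 was called only without WT replicate 3 (adjusted p up to 0.127). TIM44-2, which tethers mtHsc70 at the import channel, was at 308 ± 11.9 and 404 ± 23.0 (0.39, SE 0.10, adjusted p = 0.052). Its copy TIM44-1 was near 0, at 1.09, 3.31 and 0.91 in WT and 1.14, 1.77 and 2.65 in xal1-2. The log2 fold changes of the other 3 that were not called were 0.30 for AT3G09700, 0.19 for TXR1 and 0.09 for AT2G35795 (adjusted p = 0.283, 0.441 and 0.749).

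The same kinds of chaperone in other compartments gave no calls by limma. Among 16 plastid chaperonin, Hsp70 and partner genes, limma called 0, with 2 at an unadjusted p under 0.05 and a median log2 fold change of 0.11. In this list DESeq2 called cpHsc70-2 lower, 1 gene of the 16. The 9 genes of the cytosolic chaperonin CCT had a median of 0.21, with 0 called and 2 at an unadjusted p under 0.05. Medians were -0.54 for 5 cytosolic Hsp70 genes, -0.11 for 5 endoplasmic reticulum chaperones and -0.28 for the 13 heat shock genes above, with 0 called by limma and 3, 0 and 2 at an unadjusted p under 0.05. These medians moved with single libraries. Leaving out 1 library in turn, that of the 13 ran from -0.91 without xal1-2 replicate 3 to 0.16 without WT replicate 3, and was -0.51 and -0.53 without WT replicate 1 or 2 and -0.04 without xal1-2 replicate 2. That of the endoplasmic reticulum genes ran from -0.21 to 0.08 and was above 0 only without WT replicate 3. It was -0.01 without xal1-2 replicate 2, and near -0.20 without WT replicate 1 or 2 or xal1-2 replicate 3. The cytosolic Hsp70 median ran from -0.68 to -0.28, the latter without WT replicate 3. With replicate 3 of both genotypes left out, the medians were -0.44 for the 13 heat shock genes, -0.05 for the endoplasmic reticulum genes and -0.38 for cytosolic Hsp70. Of the cytosolic Hsp70 genes, DESeq2 called 1 lower, AT3G09440. HSC70-1, the most abundant of these 5, was at 16230 ± 2249 in WT and 17206 ± 729 in xal1-2 (0.09, SE 0.20, limma adjusted p = 0.822). Their summed level ran from 19367 to 28474.5 in WT and from 20208 to 22662 in xal1-2, with overlapping libraries. CPN60A, the plastid counterpart of HSP60, was at 1473 ± 302 in WT and 1601 ± 167 in xal1-2 (0.13, SE 0.14, adjusted p = 0.673), and cpHsc70-2 was at 999.0 ± 174 and 729.6 ± 70.2 (-0.44, SE 0.13, adjusted p = 0.083). Log2 fold changes were above 0 for all 9 CCT genes and 13 of the 16 plastid genes. They were above 0 for 1 of 5 cytosolic Hsp70 genes, 0 of 5 endoplasmic reticulum genes and 2 of the 13 heat shock genes. For the mitochondrial lists this held for 6 of 7 other folding genes and 7 of 7 import motor genes, and for 12108 of all 24441 genes tested. Without WT replicate 3 the median log2 fold changes of the import motor and CCT genes were 0.25 and 0.29. They were 0.23 and 0.29 without xal1-2 replicate 3, and 0.18 and 0.35 without replicate 3 of both genotypes. In these fits the CCT median was the higher of the pair. Whether the mitochondrial lists differ from those of other compartments was not tested.

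**Figure D4:**
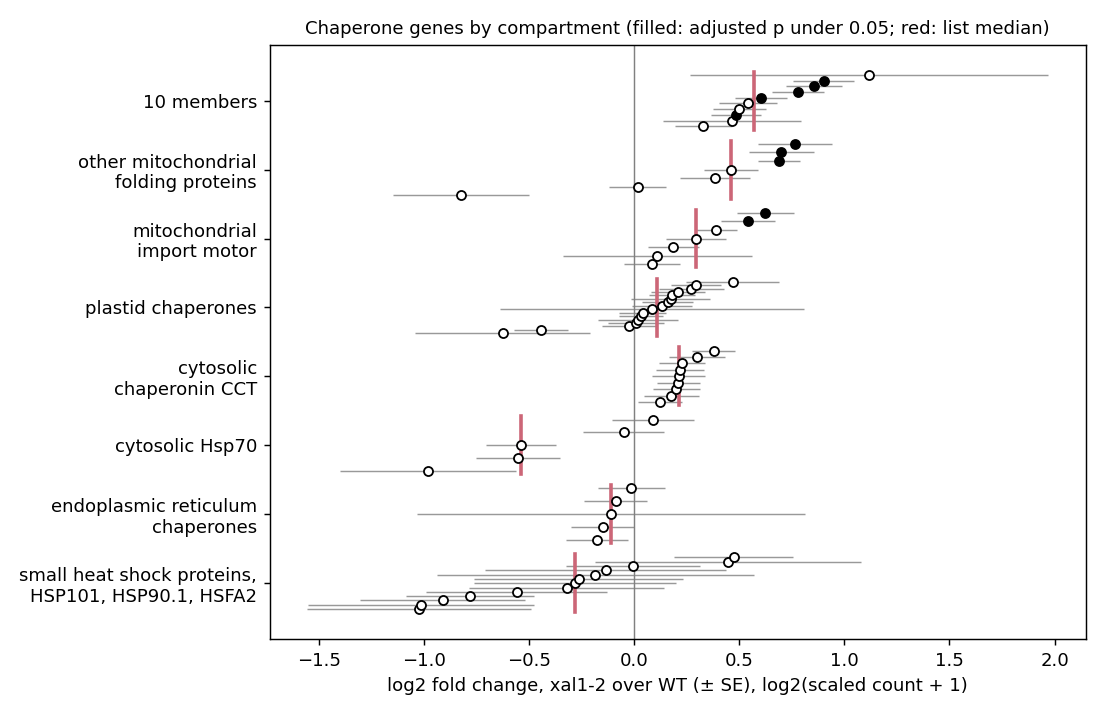
Log2 fold change of each gene (x axis, xal1-2 over WT, bars ± SE) for the 10 members and 7 lists of chaperone genes, with filled points for genes called by limma and a red line at the median of each list. The medians are 0.57, 0.46 and 0.30 for the 3 mitochondrial groups at the top and run from -0.54 to 0.21 for the other 5. With replicate 3 of either or both genotypes left out, the CCT median lay above that of the import motor.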

How the data were processed

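Messenger RNA libraries were stranded and paired-end, per the labels. Per the submitters' processing notes, FastQC 0.11.9, Trimmomatic 0.39, Subread 2.0.1 and DESeq2 were used with the TAIR10 build. For the counting, strand setting and treatment of multi-mapping reads were not given in the sources used here. The library columns the authors deposited hold a signal, read counts divided by a size factor per library. Within 0.001 of a read, 100% of values above 0 came out as whole reads. The deposited table also holds the authors' log2 fold changes with standard errors, a score (test statistic) and p-values.

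The main test was limma 3.58.1 (R 4.3.3) with an intensity trend on log2(scaled count + 1), on the 24441 genes with any value above 0, with genotype alone in the design and Benjamini-Hochberg adjustment. On recovered reads, edgeR 4.0.16, DESeq2 1.42.0 and limma-voom were alternatives. Methods were tested on simulated data with the same dispersion for every gene and no replicate effect. That run does not show how they perform on the spread of these libraries. Replicates are biological per the labels, and no libraries agreed within sampling noise (chi-square per degree of freedom from 4.09 to 10.1). Lengths are exon bases in TAIR10.1, in which 32547 identifiers matched. Members and lists were chosen with earlier results of these data known. The text names every member, the called genes of each list (up to 4), further genes from lists of 7 or fewer, where all may be named, and the 3 nearest patterns among genes at or above the median level; CPN60A, cpHsc70-2, HSP90.1, HSP101 and CASP1 were chosen after their values were seen. Promoter windows of 250 bases were read from the TAIR10.1 genome, and list genes are written by identifier where no name was given.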

Additional observations from a re-analysis of the deposited data

How the results depend on the processing

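All 10 members kept a log2 fold change above 0 under every alternative tried. The fits reuse the same libraries, and the members were proposed with the comparison known, so nothing is read from this. Without the filter on low values, limma called 154 genes in all, 0 members, 1 other mitochondrial folding gene and 0 import motor genes; the cause was not tested. With a pseudocount of 0.1 it called 1 import motor gene. DESeq2 called 1 plastid and 1 cytosolic Hsp70 gene, and with library totals limma called 1 CCT gene. Same-numbered libraries did not deviate together in all pairs (correlations 0.010, 0.282 and 0.011), so the replicate number was not taken to pair them; with the replicate block limma called 839 genes, the same 5 members, 1 cytosolic Hsp70 gene (lower) and 2 heat shock genes (1 higher, 1 lower), and 2 other mitochondrial folding genes, since ATJ1 was not called (limma adjusted p = 0.0564). Leaving out 1 library, or replicate 3 of both genotypes (chosen after seeing the data), gave 81 to 871 genes, 0 to 7 members, 1 to 3 other folding genes, 0 to 1 import motor genes, 0 to 1 CCT genes and 0 to 1 cytosolic Hsp70 genes. The log2 fold change of HSP60-2 ran from 0.75 to 1.08 over these fits. Each of the 7 members called in any fit was not called in at least 1 other.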
